A study of Mus musculus with 6 samples.

Results

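Transcript assembly of primary endothelial cell (EC) RNA left 2574 places in the mouse genome that held reads but carried no gene name, out of 91725 loci in all. These loci were found by rule: the gene name was empty, no Ensembl transcript belonged to the locus, and the counts of the 6 libraries summed to 60 or more. The summed count is the readout that chose them, and 7147 further unnamed loci fell under it. At the edge of the rule, 40 loci had a sum of 60 and 34 had a sum of 59. MSTRG.104 on chromosome X, just inside, had 37 counts in Stk11ec-/- replicate 2 and 23 in WT replicate 3, and MSTRG.10193 on chromosome 11, just outside, had 45 of its 59 counts in WT replicate 3. The cells came from 3 WT and 3 Stk11ec-/- C57BL/6 mouse samples aged 2 months per the labels, and total RNA was sequenced. In Stk11ec-/- mice, Cre driven by the endothelial gene Cdh5 deletes floxed Stk11, which encodes the kinase Lkb1, whereas WT mice keep it. The tissue of the ECs and whether each library came from its own mouse were not given in the sources used here, so p-values cover no more than the scatter among the 6 libraries, and that scatter may be technical in part.

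An assembler joins overlapping read alignments into transcripts and gives a locus a serial number, here with the prefix MSTRG, when no annotated gene claims it. Such loci are a mixed class. They are known to include RNA made upstream of active promoters, extensions of messenger RNAs beyond an annotated end, unannotated long noncoding RNAs, and copies of repeated elements and pseudogenes, whose reads can be placed at more than 1 similar site. They name no protein, so their description rests on position, length, strand and neighbours. No repeat annotation or genome sequence was used here. Reads from an unstranded locus and from a gene opposite to it cannot be told apart.

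The libraries held 22179567 to 55545899 counts each, and 131615 to 270278 of these fell in the unnamed loci. Levels are CPM, the counts scaled to library size with TMM factors, unless stated. Stk11 itself was at 59.1, 73.5 and 73.3 CPM in Stk11ec-/- and at 61.9, 82.4 and 70.4 CPM in WT libraries, a count over the whole gene that does not test the deleted exons. All 10 pan-endothelial markers were measured, and their summed level ran from 156 to 1910 CPM in Stk11ec-/- and from 216 to 465 CPM in WT, with Cldn5 at 0 in WT replicate 1 and no other of them at 0. The 7 fibroblast markers summed to 12300 CPM in Stk11ec-/- replicate 3 against 254 and 508 in the other Stk11ec-/- libraries, and to between 1530 and 6080 in WT. The pericyte and smooth muscle markers were highest in WT replicate 3, at 7840 CPM, and Stk11ec-/- replicate 3, at 4080, against 306 to 909 elsewhere. Mesothelial markers ranged from 63.4 to 1580 CPM with overlapping groups, and markers of blood cells stayed between 7.17 and 33.9 CPM, with Cd3e at 0 throughout. Xist, the RNA that silences an X chromosome in female cells, was at 259 to 416 CPM in Stk11ec-/- and at 0.554 to 1.05 CPM in WT, and named genes of chromosome Y showed the reverse. Genotype and sex therefore cannot be told apart in these 6 libraries, and no value below separates them.

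Of the 2574 loci, 213 overlapped the promoter window of a RefSeq gene, defined as 250 bases before to 50 bases after its start. These 232 windows had a median of 21 CpG dinucleotides and 60.33% G and C, compared with 7 CpG and 52.67% over all 32851 windows. The letters GGGCGG, the core of a GC box, were present on either strand in 52.6% of them and in 35.7% of all windows. CCAAT was present in 42.2% against 37.4%, and TATAAA in 8.19% against 13.6%. All windows were counted whether or not their gene was expressed here. These differences therefore cannot be read as particular to the unnamed loci. A match of letters is a description and not a bound site. The 250 bases before the start of 5 genes with a given name are shown, because their loci had the smallest p among promoter-window loci whose genotype groups did not overlap, with at most 4 taken in each direction. They are from RefSeq, build GRCm38.p6, 5′ to 3′ along the gene, and the capitals mark the bases that lie inside the unnamed locus.
Mtfr2 promoter, chr10:20347569-20347818, plus strand: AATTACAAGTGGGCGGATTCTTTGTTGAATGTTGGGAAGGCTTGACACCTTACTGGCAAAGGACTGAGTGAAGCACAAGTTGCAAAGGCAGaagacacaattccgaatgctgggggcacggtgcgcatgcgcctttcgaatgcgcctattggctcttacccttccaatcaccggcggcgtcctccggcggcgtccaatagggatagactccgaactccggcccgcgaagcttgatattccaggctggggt
Fbxw2 promoter, chr2:34826236-34826485, minus strand: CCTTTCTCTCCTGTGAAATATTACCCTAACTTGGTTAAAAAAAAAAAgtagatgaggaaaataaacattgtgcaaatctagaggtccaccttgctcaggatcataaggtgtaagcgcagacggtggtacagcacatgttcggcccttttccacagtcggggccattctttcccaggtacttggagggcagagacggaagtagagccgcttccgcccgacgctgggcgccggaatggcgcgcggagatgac
Phlda3 promoter, chr1:135765835-135766084, plus strand: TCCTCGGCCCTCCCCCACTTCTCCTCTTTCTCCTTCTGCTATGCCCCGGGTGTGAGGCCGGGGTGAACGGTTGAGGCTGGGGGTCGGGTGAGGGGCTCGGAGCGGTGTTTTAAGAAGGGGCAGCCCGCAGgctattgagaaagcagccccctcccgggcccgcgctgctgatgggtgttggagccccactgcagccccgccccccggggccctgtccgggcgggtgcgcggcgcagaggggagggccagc
Irf2bp2 promoter, chr8:126593987-126594236, minus strand: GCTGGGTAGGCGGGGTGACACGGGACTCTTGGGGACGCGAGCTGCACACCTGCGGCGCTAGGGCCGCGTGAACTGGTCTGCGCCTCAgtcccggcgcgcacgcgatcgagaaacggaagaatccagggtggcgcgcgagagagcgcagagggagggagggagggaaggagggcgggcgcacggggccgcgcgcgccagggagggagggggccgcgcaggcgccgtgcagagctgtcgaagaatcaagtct
Rps21 promoter, chr2:180257129-180257378, plus strand: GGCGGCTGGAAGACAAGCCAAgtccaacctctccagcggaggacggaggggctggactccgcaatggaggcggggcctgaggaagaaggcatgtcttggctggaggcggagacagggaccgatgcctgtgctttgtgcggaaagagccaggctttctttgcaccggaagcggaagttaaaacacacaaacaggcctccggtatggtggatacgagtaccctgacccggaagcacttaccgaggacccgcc

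In each of the 5 genes, the unnamed locus reached the promoter from its upstream end, by 21 to 130 bases, and left the start site outside. MSTRG.6963, before Mtfr2 (a regulator of mitochondrial fission), was at 0.355, 0.422 and 0.61 CPM in Stk11ec-/- and at 0 in all WT libraries. MSTRG.35072, before Fbxw2 (an F-box subunit of ubiquitin ligases), was at 0.135, 0.0888 and 0.0763 CPM in Stk11ec-/- and at 1.21, 1.14 and 1.62 CPM in WT. MSTRG.4988, before Phlda3 (a p53-induced inhibitor of Akt), was at 0.203, 0.111 and 0.305 CPM in Stk11ec-/- and at 1.29, 1.14 and 2.05 CPM in WT. Groups that do not overlap were a condition for the choice of all 5 loci and are not a result. Of the 185 tested loci over a promoter window, 7 were higher and 20 lower in every Stk11ec-/- library. Over all tested loci the shares were 8.39% and 5.54%. MSTRG.60824, before Irf2bp2 (a transcriptional corepressor), ran from 1.8 to 3.07 CPM in Stk11ec-/- and from 4.6 to 7.38 CPM in WT. MSTRG.38766, before the ribosomal protein gene Rps21, ran from 0.0338 to 0.286 CPM in Stk11ec-/- and from 0.323 to 2.05 CPM in WT. None of the 5 passed an adjusted p of 0.05 in the quasi-likelihood test of edgeR, where their adjusted p-values were 0.51, 0.286, 0.468, 0.677 and 0.707. The genes beside them had log2 fold changes of 0.12 for Mtfr2, 0.09 for Fbxw2, -0.80 for Phlda3, -0.25 for Irf2bp2 and 0.03 for Rps21.

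Most unnamed loci were short, single transcripts close to a known gene. Their length had a median of 561.5 bases, with a range from 200 to 41163, and 2545 of 2574 held 1 transcript. A strand had been assigned to 363 of them, 237 on plus and 126 on minus, and these had a median length of 1048 bases against 524 for the 2211 without a strand. Only 75 overlapped a named locus of the table, whereas 1948 lay within 10 kb of one and 551 lay farther away. Relative to the nearest locus with an Ensembl transcript, 1159 lay within 10 kb upstream, 787 within 10 kb downstream, 591 farther away, and 37 overlapped it. Among the stranded loci, 161 upstream ones had the strand of the neighbouring gene and 59 the opposite strand, and downstream the numbers were 24 and 35. In RefSeq, 664 of the loci (25.8%) overlapped the span of a gene, and 630 of these overlapped no named locus of the table. None overlapped a RefSeq miRNA. The loci lay on the 19 autosomes, X and Y in shares of 0.932% to 7.5%, and none lay on the mitochondrial genome.

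Does loss of Stk11 change the RNA of these places? The question was put to each locus by a quasi-likelihood test across all loci of the table, of which 28303 passed the low-count filter. Of the unnamed loci 2020 entered the test and 554 did not, and a locus seen in only 1 genotype could enter only through that genotype. At an adjusted p under 0.05, 2 unnamed loci were higher in Stk11ec-/- ECs, against 0.0389% of all tested loci, and 1 was lower, against 0.0247%. At an unadjusted p under 0.05, 110 were higher (5.45%, against 4.28% of all tested loci) and 84 were lower (4.16%, against 2.4%). These counts rose to 193, 192 and 215 higher without WT replicate 1, 2 or 3, and to 178 lower without Stk11ec-/- replicate 3. The tested set grew as well, to 2435, 2391 and 2300 unnamed loci of 36329, 36927 and 33964 tested loci without these WT libraries. Without Stk11ec-/- replicate 3 it held 2204 unnamed loci of 32791. The shares over all loci at these settings are not given, so the rise is not a result about the unnamed loci. The 3 Stk11ec-/- and 3 WT values did not overlap in 194 higher loci (9.6%, against 8.39% of all) and 145 lower loci (7.18%, against 5.54%). The median log2 fold change was -0.13 over the tested unnamed loci and 0.07 over all tested loci. The groups varied widely within themselves, with a common biological coefficient of variation of 0.7785. The adjusted counts depended on the tool and filter, at 58 higher and 32 lower with DESeq2 and 83 and 69 with no low-count filter.

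**Figure D1:**
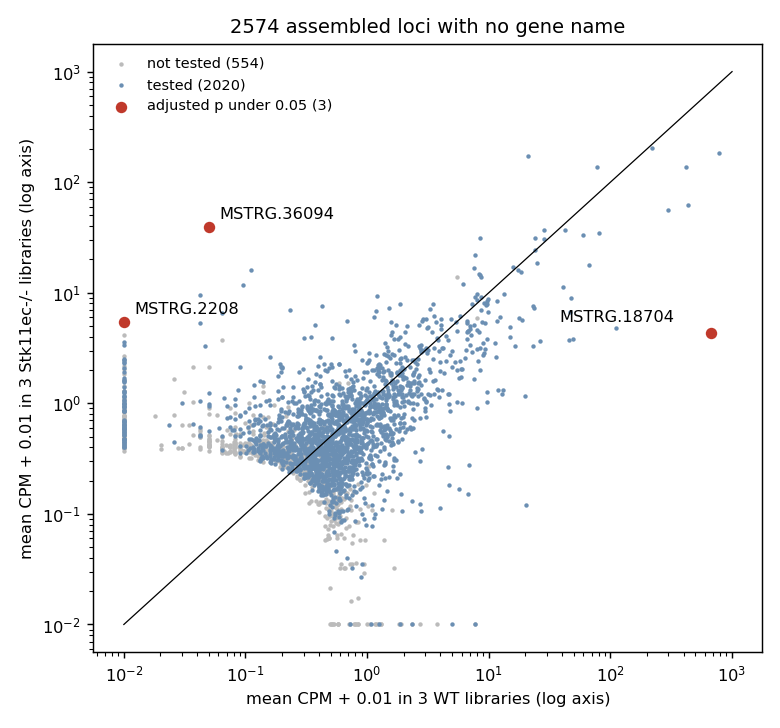
Mean level of each of the 2574 unnamed loci in 3 WT (x axis) and 3 Stk11ec-/- libraries (y axis), as CPM plus 0.01 on log axes; grey points were not tested, the line marks equal levels. The 3 red points, past an adjusted p of 0.05, lie far from the line, as do the columns and rows of loci at 0 in 1 genotype.

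MSTRG.36094, MSTRG.2208 and MSTRG.18704 were the 3 unnamed loci past the threshold. MSTRG.36094 is a minus-strand locus at chr2:89674252-89681385 (GRCm38), 2316 bases upstream of the olfactory receptor gene Olfr1251. It was at 31.65, 40.3 and 46.89 CPM in Stk11ec-/- libraries, and at 0, 0.12 and 0 CPM in WT libraries, where only 4 reads were counted in all. Its log2 fold change was 9.83 ± 0.97 (SE, n = 3 against 3, edgeR adjusted p = 0.0186). SE here and below is the size of the log2 fold change divided by the square root of the F statistic of the test. It does not bound a fold against a group near 0. With 1 library left out, the log2 fold change of MSTRG.36094 ran from 9.18 to 13.79. Olfr1251 was at 0.178 to 1.03 CPM in Stk11ec-/- and at 0 in WT, too low to be tested. MSTRG.2208 is an unstranded locus at chrY:4796579-4797605, 1645 bases upstream of the predicted gene Gm28356. It had 246, 291 and 303 counts in Stk11ec-/- libraries, or 4.16, 6.46 and 5.78 CPM, and none in WT. Against a floor of 3 counts per WT library it was at least 57.8-fold higher in Stk11ec-/- (edgeR adjusted p = 0.047). Gm28356 itself was at 0 in all 6 libraries. Kdm5d, Ddx3y, Eif2s3y and Uty, named genes of Y, summed to 0.27 CPM or less in each Stk11ec-/- library. The counts of MSTRG.2208 there therefore do not by themselves show RNA of a Y chromosome, and their origin was not tested.

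MSTRG.18704 is a minus-strand locus of 4697 bases at chr13:55184448-55189144, 15689 bases downstream of Fgfr4, a receptor for fibroblast growth factors. A plus-strand locus, MSTRG.18705 at chr13:55184448-55189153, lies over it. MSTRG.18705 had 4328 counts in sum, against 63054 for MSTRG.18704, and the counts of both were equal in 2 libraries. MSTRG.18704 was at 2.01, 2.18 and 8.7 CPM in Stk11ec-/- and at 827.6, 877.9 and 306.4 CPM in WT libraries. The lowest WT library was thus far above the highest Stk11ec-/- library, and the log2 fold change was -7.29 ± 0.84 (SE, n = 3 against 3, edgeR adjusted p = 0.0383). Per length, its mean of 58.95 FPKM over the 6 libraries was the third highest of the 2574. Fgfr4 had 0.524, 0 and 0 CPM in Stk11ec-/- and 2.95, 4.66 and 0 CPM in WT, so the groups of the gene overlapped where those of the locus did not. The calls on the 3 loci depended on single libraries and settings. With a minimum of 30 counts in 3 libraries, MSTRG.2208 and MSTRG.18704 had an edgeR adjusted p of 0.0517, and without both replicates 3 MSTRG.36094 and MSTRG.2208 had 0.0641 and 0.135. Without Stk11ec-/- replicate 1 or WT replicate 1 none of the 3 passed (edgeR adjusted p of 0.116 to 0.237, and of 0.102 for all 3), MSTRG.36094 was also lost without Stk11ec-/- replicate 3 (0.0561), MSTRG.18704 without Stk11ec-/- replicate 2 (0.118) or WT replicate 2 (0.0657), and MSTRG.2208 without either of these (0.141 and 0.082) or without Stk11ec-/- replicate 3 (0.144). Without WT replicate 3, 4 higher and 3 lower loci passed, these 3 among them.

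**Figure D2:**
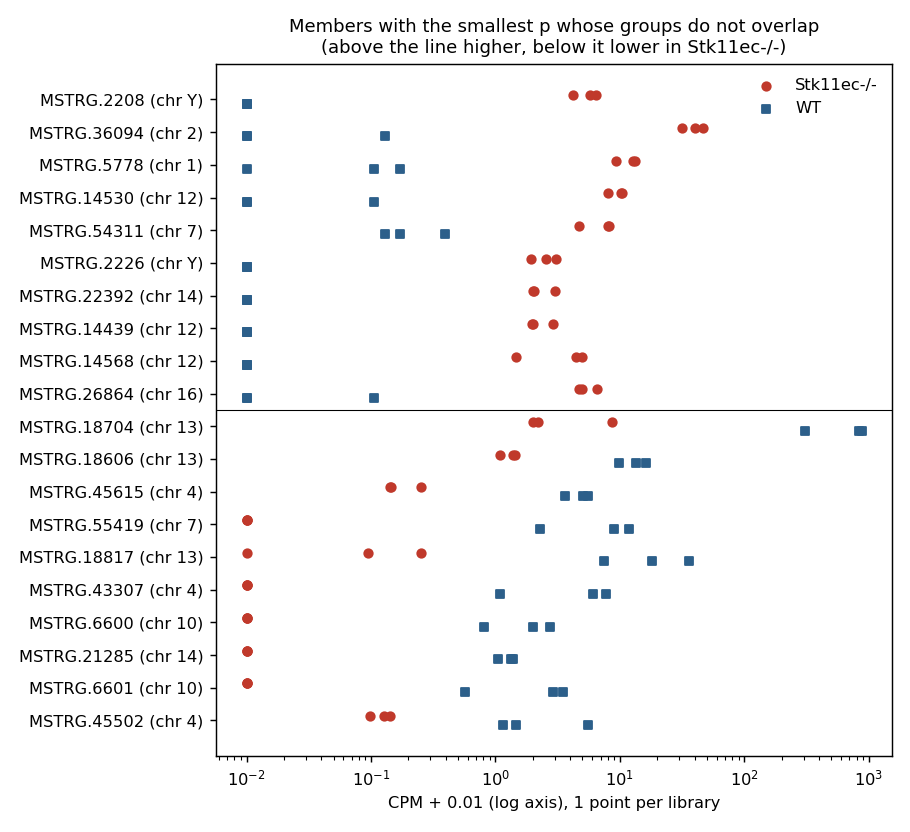
CPM plus 0.01 (log x axis) in each library for the 20 loci with the smallest p whose groups do not overlap; circles are Stk11ec-/- and squares WT libraries. Values at the left edge are 0, and MSTRG.18704 stands out by WT levels of 306.4 to 877.9 CPM.

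The next 8 loci by p that were higher in every Stk11ec-/- library did not pass the adjusted threshold, with edgeR adjusted p-values from 0.0566 to 0.0986. They were mostly loci of a few CPM in Stk11ec-/- and of almost no reads in WT. MSTRG.5778, at chr1:171487422-171487894, was at 9.36, 12.66 and 13.13 CPM in Stk11ec-/- and at 0.16, 0 and 0.1 CPM in WT (log2 fold change 7.10 ± 0.91 SE). MSTRG.14530, at chr12:19246209-19246725, was at 8.05, 10.33 and 10.24 CPM against 0, 0 and 0.1 CPM (7.89 ± 1.03). It overlaps Gm49764, a named locus with assembled transcripts only, and the RefSeq promoter window of LOC115488029. MSTRG.26864, at chr16:89185544-89185944 and 2047 bases downstream of Gm34396, was at 4.92, 6.48 and 4.69 CPM against 0, 0 and 0.1 CPM (7.07 ± 1.10). MSTRG.54311 had reads in all 3 WT libraries, unlike these 3, and lies 2814 bases upstream of Hif3a, which encodes a hypoxia-inducible factor. It was at 8.22, 4.71 and 7.99 CPM in Stk11ec-/- and at 0.16, 0.12 and 0.39 CPM in WT (log2 fold change 4.93 ± 0.67 SE). Hif3a itself ran from 40.6 to 100 CPM and from 18.2 to 73 CPM, with a log2 fold change of 0.47 ± 0.54. The remaining 4 had no count in WT and were at least 24.2- to 38.2-fold higher in Stk11ec-/-. They were MSTRG.2226 on Y, MSTRG.22392 on chromosome 14, and MSTRG.14439 and MSTRG.14568 on chromosome 12.

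The next 9 loci by p that were lower in every Stk11ec-/- library had edgeR adjusted p-values from 0.0566 to 0.2. MSTRG.18606, at chr13:51636905-51638678, lies 6554 bases upstream of Cks2, a cyclin-dependent kinase subunit. It was at 1.39, 1.09 and 1.43 CPM in Stk11ec-/- and at 16.19, 13.48 and 9.84 CPM in WT (log2 fold change -3.33 ± 0.43 SE). Both groups were tight, and Cks2 itself, at a log2 fold change of -0.11 ± 0.66, overlapped between genotypes. MSTRG.45615, at chr4:143978732-143978940, was at 0.14, 0.24 and 0.13 CPM in Stk11ec-/- and at 5.49, 3.61 and 5.06 CPM in WT (-4.77 ± 0.62). MSTRG.18817, at chr13:58458730-58458947, was at 0.08, 0.24 and 0 CPM in Stk11ec-/- and at 7.43, 18 and 35.75 CPM in WT (-7.54 ± 1.18). MSTRG.45502, 3600 bases downstream of Fbxo42 (an F-box protein gene), was at 0.09 to 0.13 CPM against 1.14 to 5.53 CPM (-4.53 ± 0.89). The other 5 had no count in any Stk11ec-/- library. MSTRG.55419, at chr7:48124243-48132403, had 56, 395 and 372 counts in WT and was at least 132-fold lower in Stk11ec-/-, against the floor of 3 counts per library. MSTRG.43307 on chromosome 4 had 193, 202 and 45 counts in WT and was at least 85.7-fold lower. MSTRG.6600 and MSTRG.6601 are neighbours at chr10:7475521-7476101 and chr10:7476602-7492520, upstream of Ulbp1, which encodes a ligand of the natural killer cell receptor NKG2D. They had 68, 66 and 33 and 86, 97 and 23 counts in WT, and were at least 31.7- and 39.8-fold lower. Ulbp1 was present in all 6 libraries, at 33.1 to 46.7 CPM in Stk11ec-/- and 25.3 to 29.9 CPM in WT. MSTRG.21285, at chr14:42134552-42139598, had 33, 46 and 43 counts in WT and was at least 21.5-fold lower. Of the 20 loci named for the smallest p, 10 lay over 10 kb from any Ensembl locus, and the nearest Ensembl locus was at 0 in all 6 libraries for 8, where 48.5% of all Ensembl loci were.

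The loci with the highest CPM were mostly long and had a strand assigned. Among the 10 with the highest mean CPM, 8 had a strand, and these were 4425 to 6533 bases long, whereas the median of all 2574 was 561.5. The 8 are not all separate places: MSTRG.21087 lies over MSTRG.21088, and MSTRG.24371 over MSTRG.24370, on opposite strands. MSTRG.21087 and MSTRG.21088 had equal counts in 4 libraries, so an assigned strand may not mark separate RNA. The most abundant, MSTRG.3723 at chr1:72564217-72564553, was of another kind, being short and unstranded inside the RefSeq span of Smarcal1 (18698 bases from the Smarcal1 locus of the table), which encodes a DNA annealing helicase. It was at 80, 223.8 and 242.5 CPM in Stk11ec-/- and at 322.3, 683.9 and 1327 CPM in WT (log2 fold change -2.10 ± 0.61 SE, edgeR adjusted p = 0.504), and its mean of 1068 FPKM was the highest per length. Smarcal1 itself was even over the libraries, at 16.1 to 21 CPM. MSTRG.12361, upstream of the helicase gene Dhx40 at chr11:86811459-86816337, was at 14.07, 148.8 and 6.45 CPM in Stk11ec-/- and at 316.9, 361.5 and 213.6 CPM in WT (-2.40 ± 1.03, adjusted p = 0.742). These 2 and MSTRG.18704 were lower in every Stk11ec-/- library (against 5.54% of all tested loci), and none of the 10 was higher in every one (against 8.39%). MSTRG.49820, 3347 bases upstream of the rhomboid family gene Rhbdd2, overlapped between groups, at 15.21 to 145.5 CPM in Stk11ec-/- and 53.49 to 680.7 CPM in WT. MSTRG.38900, at chr3:5860339-5860771, was at 463.1 CPM in Stk11ec-/- replicate 3 and at 11.34 to 31.29 CPM in the other 5 libraries. Its log2 fold change fell from 3.04 to 0.34 without that library. MSTRG.45145 on chromosome 4, 17226 bases downstream of the Ensembl locus of Ahdc1, ran from 19.01 to 56.2 CPM in Stk11ec-/- and from 38.31 to 153.8 CPM in WT.

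Some of these loci lie over each other. In all, 36 pairs of the loci overlapped, 15 of them on opposite strands. MSTRG.21087 and MSTRG.21088 share chr14:32115379-32120647 on minus and plus, and both had 1229, 538 and 19768 counts in Stk11ec-/- and 361 in WT replicate 3. In WT replicates 1 and 2 they had 11708 and 25457 on minus against 0 and 7401 on plus. The 2 loci therefore had log2 fold changes of opposite sign, -1.61 ± 1.53 and 0.82 ± 1.99 (SE), neither past a threshold, and the second fell to -2.21 without Stk11ec-/- replicate 3. MSTRG.24371 and MSTRG.24370, near the cytochrome P450 gene Cyp2d22 on chromosome 15, also overlap on opposite strands, but had equal counts in no library, and their highest values, 572.2 and 317.8 CPM, were both in WT replicate 1. With 1 locus kept of each overlapping pair, the same 3 loci passed the adjusted threshold.

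The unnamed loci together took 0.298%, 0.355% and 0.487% of the counts of the Stk11ec-/- libraries, and 0.757%, 0.599% and 0.376% of those of the WT libraries. The means were 0.38% ± 0.0968 and 0.578% ± 0.192 (SD, n = 3), and the groups overlapped, since WT replicate 3 lay between the Stk11ec-/- libraries. Fewer cells with such RNA and less of it per cell cannot be told apart in bulk samples. A few loci made up much of these sums: the 10 with the most counts held 16.8% to 38.5% of the sum in Stk11ec-/- and 41.8% to 53.9% in WT libraries. The 2211 unstranded loci took 0.155% to 0.274% in Stk11ec-/- and 0.243% to 0.262% in WT, with means of 0.22% and 0.252%. The 363 stranded loci took 0.123% to 0.213% and 0.114% to 0.507%, with means of 0.16% and 0.326%. Within the stranded class, 46 loci of 4000 to under 7000 bases, a range set after the values were seen, held 0.0501% to 0.15% and 0.0653% to 0.44%.

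The median fold change differed by position. Loci within 10 kb upstream of an Ensembl locus had a median log2 fold change of -0.37 (959 tested, 22 higher and 47 lower below an unadjusted p of 0.05). Loci within 10 kb downstream had a median of 0.13 (600 tested, 25 higher and 19 lower), and those farther away a median of -0.11 (433 tested, 59 higher and 18 lower). The 185 tested loci over a promoter window had a median of -0.48, with 4 higher and 11 lower, beside 0.07 over all tested loci. Over all tested loci 4.28% were higher and 2.4% lower at that p. These medians and counts describe loci chosen by position and are not tests. Under each of 18 alternatives, the median of upstream loci stayed below that of all tested loci, with differences from -0.752 to -0.199 on the log2 scale, and so did that of promoter-window loci, with differences from -0.878 to -0.246. The median of loci farther away did not keep its side, and was below that of all loci in 12 of the 18, and that of downstream loci was below it in 2. By length, the medians were -0.21 under 500 bases, -0.15 from 500 to under 1000, -0.00386 from 1000 to under 2000 and 0.08 at 2000 bases or more. These did not all keep their side: the median under 500 bases was -0.63 without Stk11ec-/- replicate 3 and 0.08 without Stk11ec-/- replicate 1, and that at 2000 bases or more was below the median of all loci in 5 of 18 alternatives.

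A locus and its nearest Ensembl neighbour moved together only in part. Across 1503 tested pairs with 1134 neighbours, which come from the same 6 libraries and are not independent, Pearson's r of the log2 fold changes was 0.311 and Spearman's rho 0.277. Pearson's r was 0.271 for upstream loci (n = 798), 0.415 for downstream loci (n = 487) and 0.256 for those over 10 kb away (n = 190). For the 547 pairs within 1 kb of each other r was lower, at 0.153, with a rho of 0.131 and a shared sign in 55%. The sign was shared in 56.9% of upstream, 63.7% of downstream and 60% of farther pairs. Upstream loci had a median difference from their own neighbour of -0.392 on the log2 scale, and downstream loci one of 0.123.

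A share of the unnamed loci had reads in 1 genotype only. Of the 2574, 140 had 0 counts in all WT libraries (5.44%, against 1.92% of the 30098 loci with the same minimum), and 87 of these had counts in every Stk11ec-/- library. In the other direction, 35 had 0 counts in all Stk11ec-/- libraries (1.36%, against 0.289%), and 10 of these had counts in every WT library. The directions differ in depth, so 140 and 35 are not like counts. The floor of 3 counts was 0.0723 to 0.121 CPM in WT and 0.0507 to 0.0666 CPM in Stk11ec-/- libraries. Since a low count reaches 0 more easily, the classes were also set side by side in bands of summed count. Within the band from 100 to under 300 counts, 5.13% of 1073 unnamed loci were at 0 in all WT libraries, compared with 1.27% of 2981 Ensembl loci and 1.96% of 4022 named loci with assembled transcripts only. From 60 to under 100 counts the shares were closer, at 6.8%, 4.24% and 5.37%, and at 1000 counts or more none of 131 unnamed loci was at 0 in all WT libraries, compared with 0.00955% of Ensembl loci and 1.11% of the named assembled loci. Loci over 10 kb from an Ensembl locus made up 54.3% of the 140 and 37.1% of the 35, but 23% of all 2574. Many loci were concentrated in single libraries. At least 75% of the summed CPM lay in 1 library for 147 loci: 37 loci in Stk11ec-/- replicate 2, 44 in Stk11ec-/- replicate 3 and 37 in WT replicate 3, against 5, 11 and 13 in Stk11ec-/- replicate 1 and WT replicates 1 and 2. This was 5.71% of the unnamed loci, compared with 2.64% of all loci with the same minimum.

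**Figure D3:**
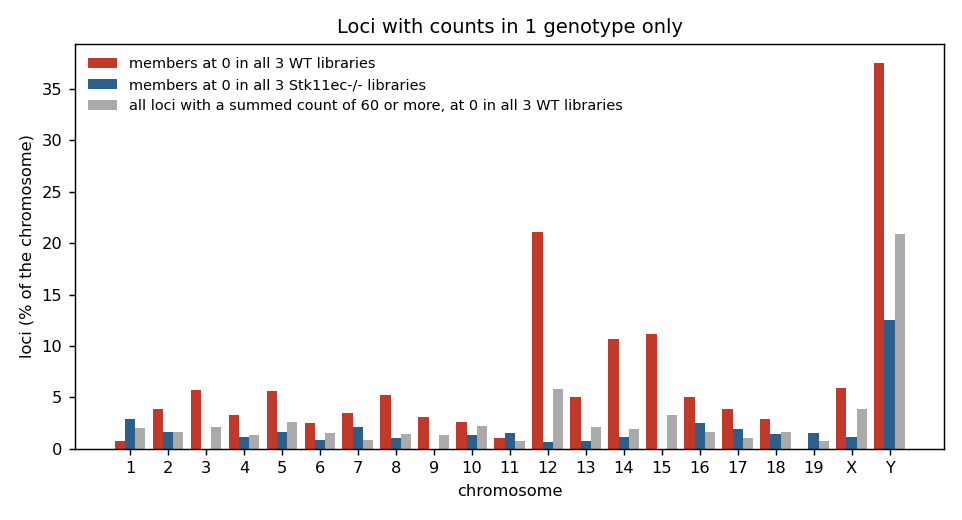
Share of the unnamed loci of each chromosome with 0 counts in all 3 WT (red) or all 3 Stk11ec-/- libraries (blue), with the share of all loci of the same minimum at 0 in all WT libraries (grey). Chromosomes Y (37.5%) and 12 (21.1%) have the tallest red bars.

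These loci were not spread evenly. Chromosome 12 had 31 loci at 0 in all WT libraries (21.1% of its 147), against 5.8% of all its loci with the same minimum. The shares were 10.7% and 11.2% on chromosomes 14 and 15, against 1.93% and 3.29% of all their loci. On chromosome 12, 27 of the 31 lay among 41 unnamed loci between chr12:19246209 and chr12:23635159. Their summed level was 23, 39.5 and 122 CPM in Stk11ec-/- and 15.3, 5.33 and 4.72 CPM in WT libraries. Stk11ec-/- replicate 3 was the highest by far and held at least 75% of the CPM of 15 of the 41, whereas others, such as MSTRG.14530 and MSTRG.14568, were present in all 3 Stk11ec-/- libraries. In the same stretch 21 of 72 named loci of the same minimum were also at 0 in all WT libraries. MSTRG.14443, in this stretch at chr12:23631316-23632284, had 33, 0 and 621 counts in Stk11ec-/-. On chromosome 15, 11 loci between chr15:61405485 and chr15:61985169 summed to 24.7 CPM in Stk11ec-/- replicate 2 and to between 0.152 and 1.02 CPM in the other libraries. On chromosome 5, 8 loci between chr5:26015408 and chr5:26270490 summed to 11.5 CPM in the same library, to 1.43 CPM in Stk11ec-/- replicate 3, and to 0.203 CPM or less in the others. At 0 in all WT libraries were 7 of these 11 loci on chromosome 15 and 7 of the 8 on chromosome 5. The groups of neighbours were picked after their values were seen, and no test is attached to them. Fibroblast markers were highest in Stk11ec-/- replicate 3 and endothelial markers in Stk11ec-/- replicate 2, and their part in these sums was not tested.

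**Figure D4:**
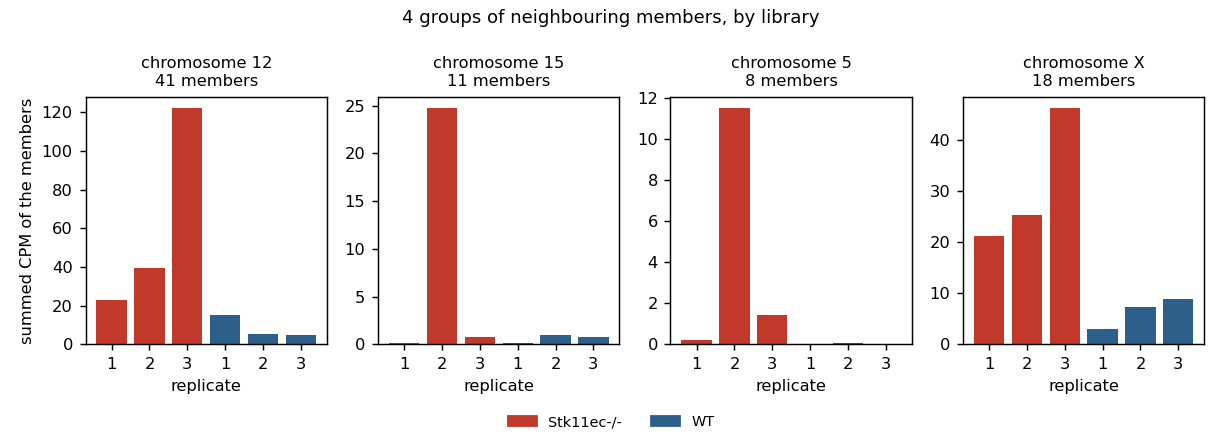
Summed CPM (y axis, a scale for each panel) of 4 groups of neighbouring unnamed loci in each library, by replicate number; red bars are Stk11ec-/- and blue bars WT. The chromosome 15 and 5 groups are present almost only in Stk11ec-/- replicate 2, and the chromosome X group is higher in all 3 Stk11ec-/- libraries than in any WT library.

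The sex chromosomes stood out from the autosomes, beside the difference in Xist. The 65 tested loci on X had a median log2 fold change of 0.86, with 17 higher and 2 lower in every Stk11ec-/- library (against 8.39% and 5.54% of all tested loci), and the 1938 on autosomes a median of -0.15. A group of 18 loci between chrX:68495419 and chrX:68547926, near the predicted gene Gm6806, summed to 21.2, 25.2 and 46.1 CPM in Stk11ec-/- and to 2.99, 7.28 and 8.8 CPM in WT libraries. Here no library carried the sum alone. Several loci of this group lie over each other, and the group was picked after its values were seen. It held 15 of the 65 tested loci on X, with a median log2 fold change of 2.3. It also held 8 of the 17 that were higher in every Stk11ec-/- library, so the values on X rest in part on 1 place. In it, MSTRG.670 was at 5.89, 6.15 and 8.3 CPM in Stk11ec-/- and at 0.929, 0.933 and 1.69 CPM in WT (log2 fold change 2.51 ± 0.5 SE, edgeR adjusted p = 0.207). The unnamed loci of X with the highest CPM, MSTRG.1733, MSTRG.1735 and MSTRG.306, overlapped between groups. MSTRG.1733 ran from 12.01 to 51.38 CPM in Stk11ec-/- and from 3.11 to 108.6 CPM in WT, MSTRG.306 from 1.07 to 11.62 and from 0.8 to 11.01 CPM, and MSTRG.1735 had reads only in Stk11ec-/- replicate 3 and WT replicate 2.

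Unnamed loci placed on chromosome Y ran against its named genes. Kdm5d, Ddx3y, Eif2s3y and Uty, single-copy male genes, summed to 0.27, 0 and 0.153 CPM in Stk11ec-/- and to 37.4, 19.8 and 27.3 CPM in WT libraries. The 24 unnamed loci on Y summed to 36.1, 55.1 and 46.1 CPM in Stk11ec-/- and to 12.1, 12.5 and 8.77 CPM in WT, the reverse order with no overlap. With the named genes near 0 in Stk11ec-/-, counts placed at Y positions there do not by themselves show RNA made from a Y chromosome. The origin of these reads was not tested. Of the 24, 9 were at 0 in all WT libraries (37.5%, against 20.9% of all 43 loci of Y with the same minimum). In the other direction, 3 were at 0 in all Stk11ec-/- libraries (12.5%). The share over all loci of Y is not given in this direction. The share on all chromosomes, 0.289%, is not a like base, since the named genes of Y were themselves near 0 in Stk11ec-/-. Of the 17 tested, 11 were higher and 2 lower in every Stk11ec-/- library, where 8.39% and 5.54% of all tested loci were. In addition to MSTRG.2208, MSTRG.2221 at chrY:20669741-20671690 was at 10.98, 18.56 and 18.41 CPM in Stk11ec-/- and at 0, 0.3 and 0 CPM in WT (edgeR adjusted p = 0.129). MSTRG.2226 at chrY:31674753-31675143 was at 2.52, 3.04 and 1.93 CPM against 0. MSTRG.2273, which overlaps the pseudogene Mid1-ps1, was at 7.31, 9.19 and 4.66 CPM in Stk11ec-/- and at 4.4, 2.74 and 2.77 CPM in WT (log2 fold change 1.10 ± 0.47 SE). Without it the sums were 28.8 to 45.9 CPM and 6 to 9.75 CPM. The opposite case was MSTRG.2160, 7777 bases from the Ensembl locus of Eif2s3y, with 0 counts in Stk11ec-/- and 16, 19 and 39 in WT libraries, the order of the named gene beside it.

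**Figure D5:**
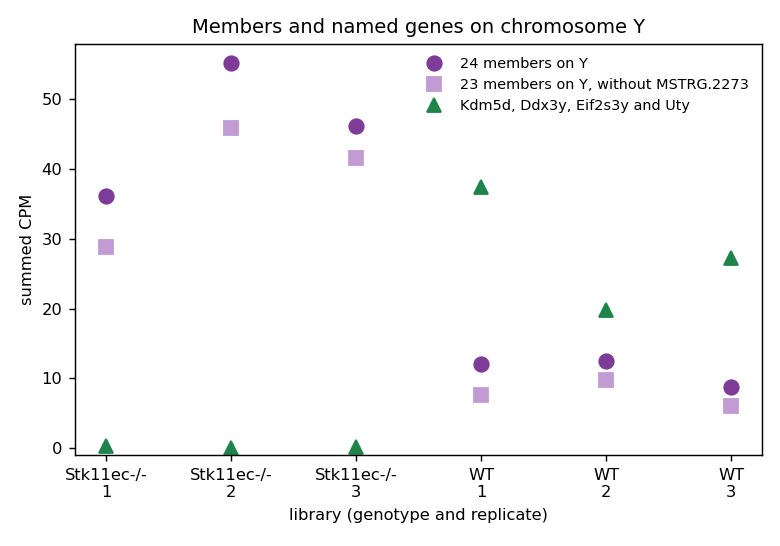
Summed CPM (y axis) on chromosome Y in each library (x axis) for the 24 unnamed loci, for 23 of them without MSTRG.2273, and for 4 named genes. The unnamed loci are higher in Stk11ec-/- (36.1 to 55.1 CPM) and the named genes in WT libraries (19.8 to 37.4 CPM).

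Within 5 Mb of the deleted gene Stk11 on chromosome 10 lay 26 unnamed loci, of which 20 were tested. Among all 26, tested or not, values did not overlap between groups for 2 that were higher and 1 that was lower. None was at 0 in a whole group. Over all loci of the table, counting tested ones only, the shares without overlap were 8.39% and 5.54%. So few loci are not a result about the region. The most abundant, MSTRG.8383 at chr10:79314380-79316116, was at 2.74, 5.22 and 13.74 CPM in Stk11ec-/- and at 0.77, 0.69 and 3.06 CPM in WT (log2 fold change 2.25 ± 0.83 SE, edgeR adjusted p = 0.668). Its neighbour MSTRG.8384 was higher in every Stk11ec-/- library, at 2.3 to 5.32 CPM against 0.3 to 1.3 CPM (2.10 ± 0.73, adjusted p = 0.615). MSTRG.8373, MSTRG.8385 and MSTRG.8372, all beside 2610008E11Rik, overlapped between groups with log2 fold changes of 0.61, 0.73 and 0.80. The closest to Stk11, MSTRG.8489, lies 522 bases from it at chr10:80114977-80115281, had 11, 1 and 18 counts in Stk11ec-/- and 0, 7 and 40 in WT libraries, and was not tested.

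The 10 longest unnamed loci, of 16823 to 41163 bases, had less than 6 CPM in every library. The longest, MSTRG.56973 at chr7:114161311-114202473, was at 1.61, 0.53 and 0 CPM in Stk11ec-/- and at 0, 1.96 and 0.51 CPM in WT. MSTRG.14334, of 22005 bases on chromosome 12, and MSTRG.27497 and MSTRG.28724, of 25618 and 26179 bases on chromosome 17, were higher in every Stk11ec-/- library. Over all tested loci 8.39% were. MSTRG.14334 had 29, 62 and 49 counts in Stk11ec-/- and none in WT, and was at least 9.88-fold higher against the floor. MSTRG.27497 was at 1.49 to 2.54 CPM against 0 to 0.24 CPM (log2 fold change 4.81 ± 1.43 SE, edgeR adjusted p = 0.519). MSTRG.28724, 4833 bases upstream of H2-M10 (a class Ib histocompatibility gene), was at 0.8 to 1.75 CPM against 0 to 0.58 CPM (1.80 ± 1.18, adjusted p = 0.874). MSTRG.40247, of 16823 bases on chromosome 3, was also higher in every Stk11ec-/- library, at 1.97 to 5 CPM against 1.45 to 1.84 CPM (1.19 ± 0.55, adjusted p = 0.767). MSTRG.10381 begins 718 bases upstream of Efemp1, which encodes fibulin-3, and was at 0 to 2.5 CPM against 0.7 to 1.87 CPM. MSTRG.8082, MSTRG.60966 and MSTRG.43773 overlapped between groups, and MSTRG.17693 had reads in Stk11ec-/- replicate 2 and WT replicate 3 alone.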

How the data were processed

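Total RNA of 6 EC libraries, 3 per genotype, was sequenced. Per the methods, the authors aligned reads with HISAT2 to GRCm38 and used StringTie for differential expression, whereas the processing notes of the submitters list mm9 along with Cufflinks, TopHat and BWA, without versions. Of 26701 loci with a GENCODE M21 identifier, 25999 sit at the same positions as in GRCm38. The authors deposited unscaled whole-number counts per locus and FPKM, scaled to length and library size. Strand setting and the treatment of reads with several places were not given in the sources used here.

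Counts of all 91725 loci were fitted with edgeR 4.0.16 in R 4.3.3 (default low-count filter, TMM, genotype as factor, quasi-likelihood test, Benjamini-Hochberg adjustment over all tested loci), and only the rows of unnamed loci are reported. CPM are counts scaled to library size with TMM factors, and folds against 0 use a floor of 3 counts per library. Floors cover counting error only. The SE of a log2 fold change was derived from the F statistic of the quasi-likelihood test, as its size over the square root of F. It was not fitted separately. Non-overlap was judged on CPM. FPKM was used to compare loci and, as log2(FPKM + 1) and log2(FPKM + 0.1), in alternatives with limma 3.58.1. The other alternatives were no filter, 30 counts in 3 libraries, median-ratio factors, library sizes from Ensembl loci, no TMM, DESeq2 1.42.0, the replicate block, no X or Y, and each library left out. Added after the data were seen were leaving out both replicates 3 and keeping 1 locus of each overlapping pair. The edgeR step was tested on simulated data.

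The loci and lists were chosen with earlier results of these data known. Named loci are all past the adjusted threshold, completed to 10 in each direction by the smallest p among loci whose groups do not overlap, the 10 highest by CPM, the 3 highest on each of X and Y, up to 5 highest within 5 Mb of Stk11 and the 10 longest. Others were chosen after their values were seen: the promoter-window loci, MSTRG.104, MSTRG.10193, MSTRG.14443, MSTRG.670, MSTRG.2160, MSTRG.8489 and MSTRG.18705. Python 3.11.15, pandas 2.3.3, numpy 2.4.6, scipy 1.17.1 and matplotlib 3.10.9 made tables and plots.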

Additional observations from a re-analysis of the deposited data

How the results depend on the processing

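The number of loci past the threshold depended on the handling of low counts and of the spread. At an adjusted p under 0.05, 2 unnamed loci were higher and 1 lower. With no low-count filter 83 were higher and 69 lower (5.91% of unnamed and 1.46% of all loci), with DESeq2 58 and 32 (3.59% and 0.658%), with limma on log2(FPKM + 1) 12 and 3 (0.743% and 0.155%), with limma on log2(FPKM + 0.1) 45 and 8 (2.62% and 0.647%), and with 30 counts in 3 libraries 1 and 0. Without TMM factors 4 were higher, and without X and Y loci 1. Leaving out 1 library gave 0 to 4 higher and 0 to 3 lower, and leaving out both replicates 3 gave 0 and 2. Median-ratio factors, library sizes from Ensembl loci and 1 locus of each overlapping pair gave 2 and 1. At an unadjusted p of 0.05, passed by 110 higher and 84 lower loci, no filter gave 247 and 179, DESeq2 201 and 143, 30 counts in 3 libraries 58 and 55, limma 212 (+ 1) and 215 (+ 0.1) higher, leaving out 1 library 113 to 215 higher and 62 to 178 lower, and leaving out both replicates 3 gave 166 lower. The highest counts with 1 library left out came without WT replicate 3 (215 higher) and without Stk11ec-/- replicate 3 (178 lower). The number of tested unnamed loci changed too, from 2020 to 755 with 30 counts in 3 libraries, 2574 with no filter, and 2204 to 2435 with 1 library left out. The shares over all loci at this unadjusted p are not given for the alternatives. The cause of these changes was not tested.

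Replicate numbers did not pair the libraries consistently: deviations from the group means correlated at 0.165, -0.119 and 0.0571 for numbers 1, 2 and 3. The fit with the replicate block gave 0 higher and 0 lower at an adjusted p under 0.05 (0.0826 for MSTRG.36094, 0.184 for MSTRG.2208 and 0.142 for MSTRG.18704 in edgeR), and 92 and 82 at an unadjusted p of 0.05. Of the Stk11ec-/- libraries, replicates 1 and 3 correlated best with the WT library of their own number. Replicate 2 correlated best with WT replicate 3, at 0.15, and not with its own number. Whether the libraries were paired cannot be decided from these values.

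The shift of all tested loci was 0.31 on the log2 scale without TMM factors and 0.07 with them, and relative to it the unnamed loci had a lower median in 17 of 18 alternatives, the exception being without Stk11ec-/- replicate 1, where it was 0.00462 higher. Among the values of the 49 named loci under the alternatives, 701 kept direction and side of the adjusted threshold, 75 passed it only there, 19 no longer passed it, and 36 changed sign. The sign changes concerned 9 loci, none of them past an unadjusted p of 0.05. For MSTRG.8082 the log2 fold change was 0.00197 with no filter, 0.50 without TMM factors, 0.36 and 1.57 with limma (+ 1 and + 0.1), 3.44 with the replicate block, 7.90 without both replicates 3, and -0.85 to 7.58 with 1 library left out. For MSTRG.56973 it was 0.23 without TMM factors, 0.11 and 0.28 with limma, 0.14 without both replicates 3, and -1.64 to 1.47 with 1 library left out. For MSTRG.1733 it was 0.49 and 0.97 with limma, 0.52 with the block, and -0.71 to 1.95 with 1 library left out, and for MSTRG.24371 0.65 and 0.75 with limma, 0.10 with the block, and -0.66 to 2.24. For MSTRG.10381 it was 0.00802 with no filter, 0.0577 without TMM factors, and -0.93 to 0.55 with 1 library left out. Without both replicates 3 it was -2.75 for MSTRG.21088 and -0.30 for MSTRG.8373, and with 1 library left out -2.21 to 4.96 and -0.0539 to 1.49. With 1 library left out it was -0.89 to 3.62 for MSTRG.60966 and -1.90 to 0.10 for MSTRG.43773. The cause was not tested. The share of counts at the unnamed loci, WT minus Stk11ec-/-, was 0.198 percentage points and stayed above 0 under every alternative run, from 0.108 to 0.299 with 1 library left out and 0.352 without both replicates 3. With a limit of 5 kb in place of 10 kb, 946 loci were far from a named locus and with 50 kb 89, and 37 in place of 75 overlapped a named locus with an Ensembl transcript. The depth limits low loci most, since at the floor of 3 counts a library resolves no level under 0.0507 to 0.121 CPM.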
